A study of Mus musculus with 7 samples.

Results

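Acetylation of lysine 27 of histone H3 (H3K27ac) was mapped by ChIP-seq in granule neuron progenitors (GNPs) of the wild-type (WT) mouse cerebellum, and all regions called for that mark on chromosomes 1 to 19 and X are described here. They number 31389 of the 31400 regions in the H3K27ac table, and of 71977 regions in the 5 peak tables of the study. No measured value was used to choose them. GNPs came from C57BL/6 pups (C57BL/6N in the methods of the study) at postnatal day 7 (P7), were taken from pooled cerebella of both sexes over a percoll gradient and were used fresh. The other tables held Chd7 peaks of WT and Chd7 KO GNPs, and Top2b peaks of WT and Chd7 KO cerebellar granule neurons (CGNs), which are GNPs cultured for 48 h without the mitogen SHH. Chd7 KO cells carried a floxed Chd7 gene and Cre under Atoh1 control (Atoh1-Cre::Chd7 f/f). Recombination was thus limited to cells with Atoh1-Cre activity. In WT cells the Chd7 gene had not been deleted, and the study gives WT as Chd7 f/f in its comparisons with the mutant. Each condition and antibody had 1 library. The values below have therefore no replicate error, no test between conditions was made, and the 95% Wilson intervals given with shares cover counting error only.

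H3K27ac is deposited by the acetyltransferases p300 and CBP on nucleosomes beside active promoters and active enhancers, and is low or absent at silent ones. Enhancers that stay active over long stretches form broad acetylated domains, often called super-enhancers, which are frequently found at genes that define a cell type. GNPs divide in the external granular layer of the cerebellum in response to Sonic hedgehog from Purkinje cells, depend on the bHLH factor Atoh1, and later switch on NeuroD1 and the programme of the glutamatergic granule neuron.

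Acetylated regions of both kinds are shown here as sequence, because base composition differed between promoters with and without the mark and between start sites and distal regions. The first pair are RefSeq promoters (GRCm38.p6, 250 bases before to 50 after the start, on the strand of the gene) of Zic1, a zinc finger factor of the granule lineage with strong acetylation (chr9:91365719-91366018, minus strand), and of Gabra6, a GABA receptor subunit of mature granule neurons with none (chr11:42321023-42321322, minus strand). Capitals mark each CG.
Zic1 promoter: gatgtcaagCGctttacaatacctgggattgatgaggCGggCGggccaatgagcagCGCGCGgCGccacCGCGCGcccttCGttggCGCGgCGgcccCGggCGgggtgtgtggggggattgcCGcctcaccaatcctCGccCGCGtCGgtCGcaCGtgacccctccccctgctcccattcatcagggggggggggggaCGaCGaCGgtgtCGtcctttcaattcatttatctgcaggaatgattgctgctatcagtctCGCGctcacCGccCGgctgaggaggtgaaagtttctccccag
Gabra6 promoter: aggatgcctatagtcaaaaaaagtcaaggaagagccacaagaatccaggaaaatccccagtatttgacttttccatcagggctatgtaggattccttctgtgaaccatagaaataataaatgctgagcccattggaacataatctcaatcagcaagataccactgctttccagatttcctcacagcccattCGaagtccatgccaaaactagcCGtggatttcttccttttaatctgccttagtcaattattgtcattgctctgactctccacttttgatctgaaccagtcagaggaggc
The second pair are 300 bases around distal summits on the plus strand of GRCm38. One lies downstream of Atoh1 (chr6:64734578-64734877) and the other in a gene desert of chromosome 9 (chr9:90693289-90693588). Capitals mark the E-boxes CAGCTG and CAGATG on either strand, the hexamers bound by bHLH factors.
Atoh1 downstream: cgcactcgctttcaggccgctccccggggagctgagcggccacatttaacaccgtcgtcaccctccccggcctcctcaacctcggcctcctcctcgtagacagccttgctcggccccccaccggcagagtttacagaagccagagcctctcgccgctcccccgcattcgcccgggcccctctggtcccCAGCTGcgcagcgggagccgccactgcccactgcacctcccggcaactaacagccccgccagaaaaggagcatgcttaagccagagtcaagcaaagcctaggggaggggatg
Chromosome 9 desert: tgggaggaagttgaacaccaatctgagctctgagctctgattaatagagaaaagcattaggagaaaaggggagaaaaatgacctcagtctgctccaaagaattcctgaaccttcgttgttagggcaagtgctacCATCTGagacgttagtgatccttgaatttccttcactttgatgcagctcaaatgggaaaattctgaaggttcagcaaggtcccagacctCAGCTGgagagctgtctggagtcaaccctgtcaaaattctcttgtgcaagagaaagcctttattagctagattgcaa
The Zic1 promoter held 31 CG and the Gabra6 promoter 2, at GC contents of 65.3% and 42.0%. Other promoters without the mark held more CG than that of Gabra6, such as Grin2c (22 CG, 70%), Slc17a7 (13 CG, 63.7%) and Meis2 (13 CG, 51%). The desert window was as poor in CG as the Gabra6 promoter (2 CG, GC content 44.0%), whereas the Atoh1 window was not (22 CG, 67.0%).

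Most acetylated regions lay away from start sites, but peaks with their summit near a start held most of the summed signal. A peak was called a promoter peak when its summit was within 1 kb of an annotated transcription start site, and distal otherwise. Promoter peaks numbered 12218 (38.9%, 95% interval 38.4 to 39.5), intronic peaks 11418 (36.4%, 35.8 to 36.9), intergenic peaks 6586 (20.98%, 20.5 to 21.4) and exonic peaks 1167 (3.72%, 3.51 to 3.93). All peaks together covered 29.3 Mb, or 1.11% of these chromosomes. Promoter peaks held 46.1% of the covered bases and 60.8% of the summed signal, where signal is peak width multiplied by pileup. Distal peaks held the larger part of the covered bases (53.9%). In the signal, the summit value stands for the full width of a peak, also where a promoter peak extends far beyond the start. Pileup is the coverage by stacked fragments at the summit as the peak caller gave it. It comes in steps of 0.941, so the unit called fragments here is not a whole count. The promoter share rose with the stringency of the call, to 60.1% among peaks with a −log10 q of at least 10.

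Promoter peaks were both wider and stronger than distal peaks. Their median width was 885 bp (quartiles 547 and 1409), against 535 bp (378 and 922) for distal peaks. Median pileup was 55.5 (quartiles 33.9 and 93.2) at promoters and 25.4 (20.7 and 36.7) at distal peaks, a ratio of 2.19, and median fold enrichment over the local background was 6.85 and 3.78. Exonic, intronic and intergenic peaks resembled each other, with median pileups of 27.3, 25.4 and 26.4. The drop was abrupt: median pileup was 59.3 for summits within 0.5 kb of a start, 32.9 at 0.5 to 1 kb, 27.3 at 1 to 2 kb, and between 23.5 and 26.4 in each bin from 2 to 500 kb. Distal summits lay a median of 13.9 kb from the nearest start of any kind and 27.4 kb from the nearest protein-coding start.

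**Figure D1:**
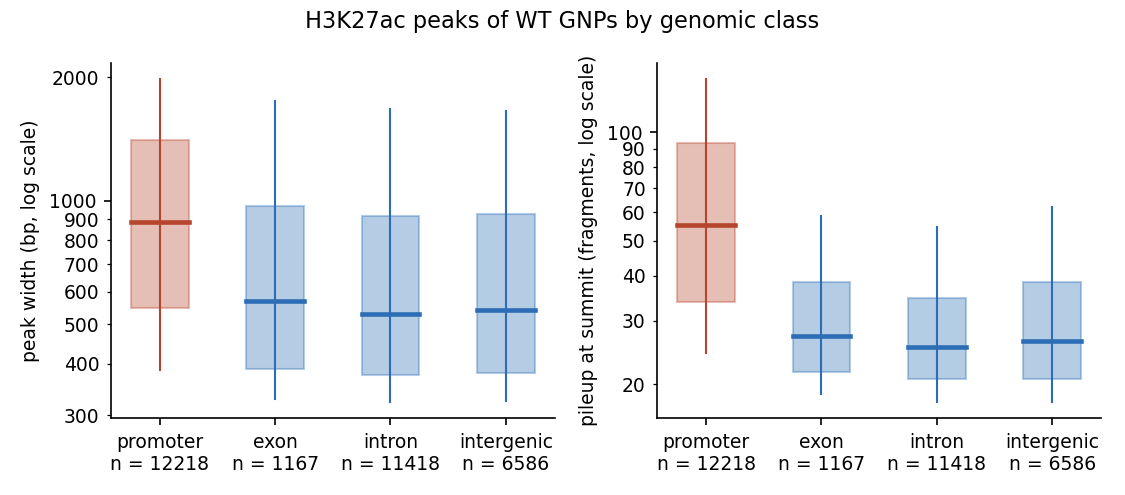
Width in bp (left) and pileup at the summit (right) of H3K27ac peaks of WT GNPs by genomic class, on log axes. Lines are medians, boxes quartiles and whiskers the 10th and 90th percentiles over peaks of 1 library; promoter peaks have a median pileup of 55.5 and the other classes 25.4 to 27.3.

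At promoters, the summit sat on the transcribed side of the start. Of 11216 summits within 1 kb of a protein-coding start, 7811 (69.6%) were downstream. Between 100 and 500 bp downstream lay 50.3% of these summits, and 16.98% lay between 100 and 500 bp upstream. The fullest 100 bp bin was 100 to 200 bp downstream, with 2641 summits. Only 22.9% of the summits were within 100 bp of the start itself.

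**Figure D2:**
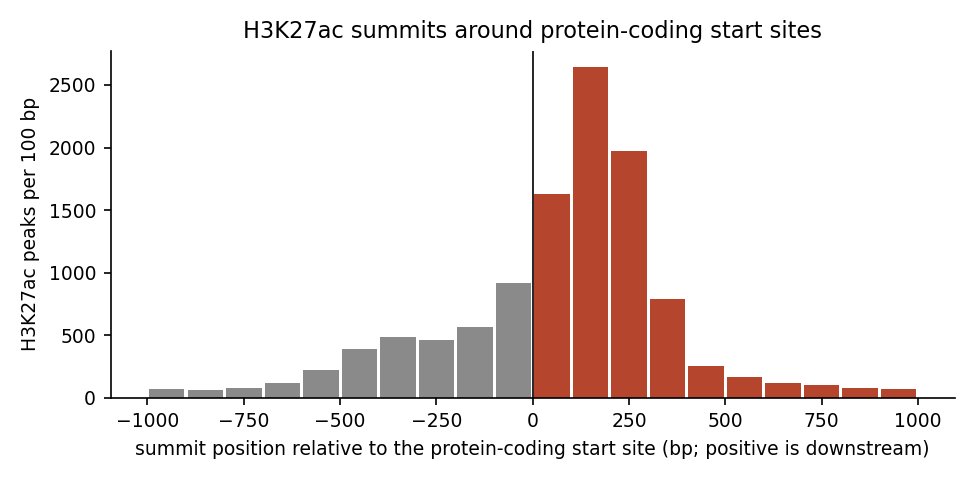
Number of H3K27ac peaks of WT GNPs (y axis, per 100 bp) by the position of the summit relative to the nearest protein-coding transcription start site (x axis, bp, positive downstream). The downstream side holds 7811 of 11216 summits, with a maximum of 2641 at 100 to 200 bp.

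Pileup and width rose together, with a Spearman's rho of 0.784 across the 31389 peaks (0.776 at promoters, 0.747 at distal peaks). Both come from the same reads of 1 library, and peaks are not independent of each other. In the lowest decile of peaks by pileup the median width was 352 bp and 8.92% were promoter peaks, and in the highest decile 1765 bp and 83.2%.

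Base composition followed the same division. In 300 bp windows at summits, median GC content was 63.3% at promoter peaks and 48.3% at distal peaks, against 44.0% in 35254 windows placed 10 kb from distal summits and outside any peak. The CpG ratio (observed over expected from the C and G content) had a median of 0.745 at promoter summits, 0.203 at distal summits and 0.169 in the windows 10 kb from distal summits. Distal acetylated regions were thus CpG-poor as a group, and 3.43% of them had a ratio above 0.6. Among promoter summits the CpG ratio climbed with strength, from a median of 0.394 in the lowest quintile by pileup to 0.862 in the highest.

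CpG content also separated promoters with the mark from those without. Promoter sequence was matched for 16428 protein-coding genes, of which 8062 were acetylated. Median CpG ratio was 0.802 in acetylated and 0.273 in unacetylated promoters. Of promoters with a ratio below 0.2, 8.09% were acetylated (284 of 3512), and of those with a ratio of 1 or more, 88.7% (1229 of 1385). One sequence was taken per gene, and the peak could lie at any annotated start of that gene. A peak counted as at a start when it overlapped 1 kb either side of it, wherever its summit lay. With the peak at the start of the sequence itself, 3.45% of promoters below 0.2 (121) and 88.2% of those at 1 or more (1222) were acetylated, with median pileups of 44.2 and 87.5. This comparison was added after the data were seen. Promoters of Nhlh1 and Nhlh2, which encode bHLH factors of this lineage, were CpG-poor, with 2 CG each. Both had an overlapping peak at that start, with summit pileups of 177.88 and 200.47. All peaks nearest to these genes (5 and 4) were distal, so the summits need not lie at the CpG-poor start. Nfia also had 2 CG in its sequence, with a summit pileup of 107.29 for a peak at that start and 194.82 for one at another start of the gene.

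Short motifs were counted on both strands in the same windows, as a description. CAGCTG reads the same on both strands. At distal summits, the E-box CAGCTG was found in 19.5% of windows against 12.8% at 10 kb, the E-box CAGATG in 28.4% against 22.0%, and the Zic motif CAGCAGG in 12.5% against 7.39%. All 3 were more frequent at the summits, where GC content was also higher. The Gli motif TGGGTGGTC was rare, in 0.329% against 0.247% of windows, and the full NFI palindrome was in 0.00522% and 0.0113%. TATAAA ran the other way, in 14.2% against 22.6%. At promoter summits the GC box CCGCCC was in 47.4% of windows and TATAAA in 4.41%. Over all 16428 promoter sequences, which were placed by the start and not by a summit, these motifs were in 48.3% and 12.9%. Because the windows differ in position, these shares do not compare promoters with and without the mark. Among the promoter sequences, CCGCCC was in 66.7% of acetylated and 30.5% of unacetylated promoters, and TATAAA in 5.94% and 19.5%. Over all 16428 promoters, CAGCTG was in 15.3%, CAGATG in 14.5%, CAGCAGG in 10.5% and TGGGTGGTC in 0.189%. CAGCTG did not climb with strength among distal peaks, with 18.2% in the lowest and 19.04% in the highest quintile. The part of base composition in these shares was not tested.

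The peaks with the highest −log10 q were almost all at start sites of broadly used genes. The first, at the antisense gene Gm28529 and the adjacent start of Epc1, a subunit of the NuA4 acetyltransferase complex, had a pileup of 389.65, the highest of the table. Next came Klf7, a zinc finger factor of developing neurons, with 386.83 over 5544 bp. The third was intronic, 18017 bp from the start of Diaph1, a formin that builds actin filaments (326.59). Ranks 4 to 10 lay at Cspp1 (327.53), Gm10762 (335.06), Zc3h4 (306.83), Actg1 and its divergent transcript 0610009L18Rik (336), Kmt5b (302.12), Clk1 (303.06) and Tnpo1 (310.59). They encode, where known, a centrosomal protein, a transcription termination factor, cytoplasmic actin, a histone H4 methyltransferase, a splicing kinase and a nuclear import receptor. Srf (299.3), Ep300 (310.59), Bicral (318.12), Ctcf (293.65) and the nuclear RNA Malat1 (346.36) completed the first 15. Of these 15 peaks 13 were promoter peaks, and all were between 1263 and 5544 bp wide.

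Ranking by width returned a different set, made of neural transcription factors and non-coding loci. The widest peak, 25227 bp with a pileup of 166.59, covered Zic2. An intronic peak of Nfix followed with 23086 bp (135.53), and a peak 63.3 kb from the nearest coding start, Ppara, in the host region of let-7b with 22140 bp (298.35). A peak beside Mir9-2, whose nearest coding gene is Mef2c at 78.0 kb, spanned 21690 bp (239.06). The Zic1 and Zic4 pair held 2 of the 10 widest peaks, of 17354 bp (168.47) and 15174 bp (252.24), and Nfib held 1 of 15333 bp (229.65). The 3 others of the 10 were intergenic. They were a peak of 18566 bp on chromosome 4 (153.41; Mpdz nearest, 137 kb away), one of 15701 bp on chromosome 13 (151.53; Ccnh, 431 kb) and one of 15425 bp on chromosome 9 (194.82; Tbc1d2b, 423 kb), which is the desert region printed above. None of the 10 widest peaks was among the 15 with the highest −log10 q.

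Neighbouring peaks were joined when they lay within 12.5 kb of each other, as super-enhancer callers do, which gave 17532 regions. They were ranked by summed signal, and those above the point where the scaled rank curve has slope 1 were called super domains. There were 612, with a median length of 19.1 kb and a median of 4 peaks. They contained 3922 peaks, 21.03% of the acetylated bases and 31.6% of the signal. Peaks inside were less often at start sites (28.4%) than peaks elsewhere (40.4%), yet 489 of the 612 held at least 1 promoter peak and 123 held none. Distal peaks inside had a median pileup of 29.2 and distal peaks outside 25.4. For promoter peaks the values were 88.5 and 54.6. The super domains are selected on signal, so these levels only describe them. The choice to count promoter peaks mattered: without them 361 super domains were called.

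The top of the ranking belonged to a handful of loci. The first region (98.2 kb, 21 peaks, summed signal 9.62 Mb × fragments) contained the hairpins of let-7b and let-7c-2 and the start of no coding gene. Its rank was 1 or 2 under all 8 alternative ways of stitching and ranking. Under an alternative, the rank of a region is that of its best-ranked overlapping part. Without stitching, this part was here the peak of 22140 bp (chr15:85651232-85673371). That peak does not reach the hairpins, which lie near the end of the region (chr15:85706603-85707403), so its rank is not that of the let-7 hairpins. The Zic1 and Zic4 region had rank 2 (72.3 kb, 11 peaks, signal 9.18), and stayed between rank 1 and rank 5. Nfix, an NFI factor of granule neuron development, had rank 3 (110 kb, 33 peaks, signal 6.67), and Mir9-2 rank 4 (37.9 kb, 4 peaks, signal 6.59).

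Of ranks 5 to 20, 3 regions lay at members of the granule lineage list, Nfib, Zic2 and Nfia. A region in Tcf4, which encodes an E-protein partner of Atoh1, had rank 5 with 38 peaks. A region at Nfib had rank 6 with 11 peaks and the Zic2 and Zic5 region rank 7 with 5. The region of rank 9, with 19 peaks, lay 77.3 kb from Gm5089 on the same stretch of chromosome 14 as Zic2. Nfia had rank 12 with 10 peaks, and Mab21l1, inside the gene Nbea, rank 15 with 6. Without promoter peaks the Zic2 and Zic5 region fell to rank 82 and Nfia to rank 184. With stitching at 20 kb the regions of ranks 7 and 9 became one, which then had rank 1.

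Signalling, cytoskeletal and other genes made up the remainder. Map3k1, a kinase upstream of JNK, had rank 8 with 10 peaks, and Ppp2r2c, a brain subunit of phosphatase 2A, rank 10 with 22. The region of rank 11, 108 kb with 38 peaks of which 1 was a promoter peak, lay mostly inside Chd7, downstream of its first start. A region in Frmd4a, which encodes a scaffold protein of cell polarity, had rank 13 with 35 peaks, and the tubulin genes Tuba1a and Tuba1b rank 14 with 9. A region with Mir3089 (Cstad nearest, 75.2 kb away) had rank 16 with 27 peaks. Mphosph9 with 2810006K23Rik followed at rank 17 with 8 peaks, Xkr7 with Pdrg1 at rank 18 with 10, Mir9-1 at rank 19 with 8 and Gse1 with Gins2 at rank 20 with 33. Some of these ranks rested on the joining of many peaks. When peaks were ranked one by one, the strongest peak of the Frmd4a region had rank 45, that of the Ppp2r2c region rank 99 and that of the Gse1 region rank 147.

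**Figure D3:**
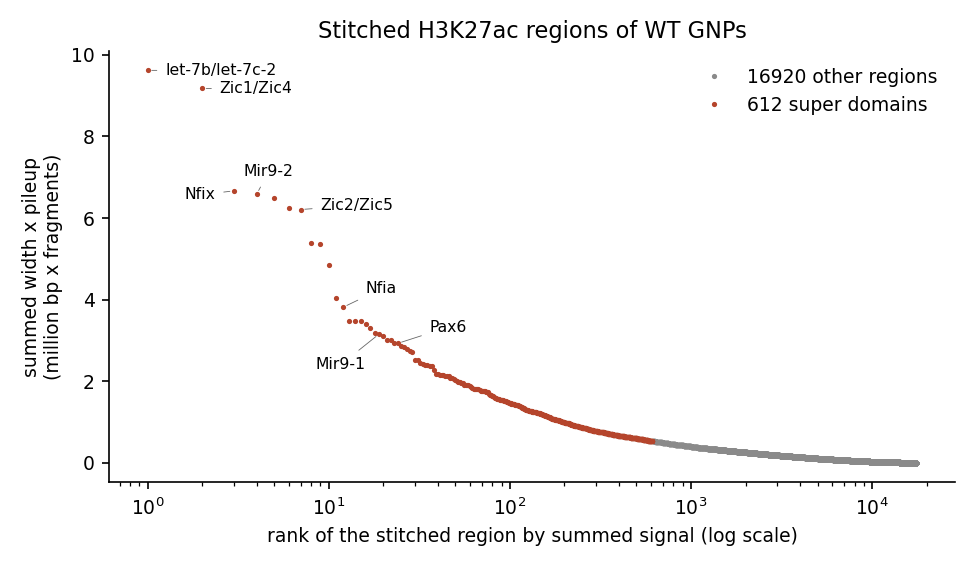
Summed signal (y axis, peak width times pileup, in Mb × fragments) of the 17532 stitched H3K27ac regions of WT GNPs against rank (x axis, log scale). Each point is a region, the 612 super domains are in red, and 8 loci named in the text are labelled, from let-7b/let-7c-2 at 9.62 to Pax6 at rank 24.

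Several of the top regions held microRNA genes and no coding start. miR-9 is a brain microRNA that targets progenitor genes, and the let-7 family is known for its rise as progenitors differentiate. The mature sequences encoded in these regions, from RefSeq (GRCm38.p6), are printed with the seed, bases 2 to 8, in capitals.
miR-9-5p: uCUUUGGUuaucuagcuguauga
miR-9-3p: aUAAAGCUagauaaccgaaagu
let-7b-5p: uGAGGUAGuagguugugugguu
let-7c-5p: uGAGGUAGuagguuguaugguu
All 3 genes for miR-9, which encode the same mature sequences, lay in super domains: Mir9-2 at rank 4, Mir9-1 at rank 19 and Mir9-3 at rank 21. Each hairpin was itself under a peak, of 8096, 3596 and 11681 bp (chr13:83738814-83738885, chr3:88215598-88215686 and chr7:79505264-79505353, all on the plus strand). By comparison, 3.98% of 1005 microRNA hairpins were inside a super domain and 9.05% overlapped a peak. The let-7 family, which shares the seed GAGGUAG in the members printed, was uneven. Of its 11 hairpins 2 were in a super domain, 4 in any stitched region and 2 under a peak, namely let-7b (470 bp) and let-7i (1835 bp, region of rank 1088). These families were picked after the ranking was seen. The Mir9-1 region depended on start sites of non-coding transcripts, since 7 of its 8 peaks were promoter peaks and its rank was 7120 without them.

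Counting peaks by the nearest start site gave another view. Of 21755 protein-coding genes, 75.02% were nearest to no distal peak and 1.84% to 10 or more. Chd7 and Tcf4 had 66 peaks each, Frmd4a 64, Gse1 59, Klhl29 58, Zmiz1 54, Celf4 52, Zfp521 52, Nfia 48 and Celf2 47. All 10 had an acetylated promoter, with pileups between 96 and 232. Among them are an RNA-binding protein pair of neurons (Celf2 and Celf4) and several transcriptional regulators (Tcf4, Zmiz1, Zfp521, Nfia). They are long genes, from 177 kb for Chd7 to 970 kb for Celf2. Mycn, the proliferation factor downstream of Sonic hedgehog, had 39 peaks although the gene spans 5.82 kb, but 4 of them at most lay within 50 kb of it.

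A promoter was called acetylated when a peak overlapped 1 kb either side of any annotated start of the gene. This held for 10210 of 21755 protein-coding genes (46.9%), with a median pileup of 71.5 (quartiles 45.2 and 109). The pileup given for a promoter is the highest summit value among such peaks. That summit can lie more than 1 kb from the start, since only the peak has to overlap. Gene families ranged widely. Ribosomal protein genes were acetylated in 79 of 82 cases, Zfp zinc finger genes in 285 of 394, and olfactory receptor genes, which act mainly in the nose, in 9 of 1135. Vomeronasal receptors had 2 of 329, keratins 4 of 110 and cytochrome P450 genes 8 of 100. Among non-coding genes, 585 of 5305 lincRNAs and 711 of 2958 antisense genes had a peak at a start, and the latter cannot be told from the gene they face.

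The markers of GNPs were acetylated, though unequally. Zic1 had a promoter pileup of 195.77, Neurod1 154.35, Pax6 119.53, Gli2 48.94 and Atoh1 32. Not all of these summits lay at the start. That of Zic1 was at −4.07 kb from its start and 0.383 kb from a start of Zic4, and that of Neurod1 at 1.92 kb. For Gli2 and Atoh1 the summits were 1.38 and 1.07 kb from the nearest start of the gene. All 5 pileups are above 0, but those of Gli2 and Atoh1 are under the median of acetylated promoters. Pax6, a paired box factor of the rhombic lip, lay in the super domain of rank 24 (140 without promoter peaks), with a promoter peak of 9334 bp and another of 12221 bp. Neurod1 was in that of rank 72. Gli2, the main activator of the Sonic hedgehog response, was in no super domain but had 30 peaks in the gene and 50 kb around it, most of them intronic and with pileups of 21.7 to 72.5.

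Atoh1 was the weakest of the markers at its start and stronger downstream. Around the gene were 6 peaks. Upstream, pileups were 26.4 at −1.90 kb and 24.5 at −0.926 kb from the start. One peak of 1107 bp lay in the gene body, with 32 at its summit. Downstream, where an autoregulatory enhancer of Atoh1 is known, pileups climbed with distance, from 21.7 at 3.29 kb and 33.9 at 3.99 kb to 52.7 at 5.60 kb, the window printed above. The stitched region ranked 3792, and the promoter call was lost at a −log10 q of 10.

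In the granule lineage list, 18 of 20 genes had an acetylated promoter (90%, beside 46.9% of all coding genes). The start of 14 lay in a super domain (70%, beside 3.27%, and 40% in the housekeeping list below). The median pileup of the acetylated members was 162. The list was drawn up with earlier results of these data known. Zic4 (252.24), Nfib (229.65), Meis1 (208.94) and Nhlh2 (200.47) were the highest. Nfia (194.82), Nhlh1 (177.88), Insm1 (172.24), Zic2 (166.59), Nfix (158.12), Sox11 (130.82) and Barhl1 (121.41) followed, all of them transcription factors of developing neurons. Etv1 had 43.29. Meis2 and Lhx9, homeobox genes of the early rhombic lip lineage, had no promoter peak, and Meis2 had no peak within 50 kb. Zic genes and NFI genes are each a family, and neighbouring members (Zic1 with Zic4) share peaks.

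Genes of the Sonic hedgehog response and the cell cycle were acetylated in 15 of 18 cases (83.3%), with 5 in a super domain (27.8%). Mycn was the highest (150.59), followed by the cell cycle genes E2f1 (142.12), Top2a (142.12), Mki67 (137.41) and Pcna (96). The receptor Ptch1 had 128.94 and lay in the super domain of rank 91, with 17 peaks within 50 kb. The co-receptors Boc (100.71) and Gas1 (75.29), the inhibitor Sufu (71.53) and the transducer Smo (53.65) were lower. Gli1 (32.94) and Gli3 (27.29) were the weakest, beside Cdk6 (43.29) and Ccnd2 (41.41), which still lay in the super domain of rank 392. Ccnd1, the cyclin D gene that responds to SHH in these cells, had no promoter peak. Its nearest peak was intronic, 3.95 kb downstream of the start of the gene, with a pileup of 30.1. The ligand-binding inhibitor Hhip and the co-receptor Cdon had none either.

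Genes of later granule neurons were mostly acetylated, at uneven levels. In the maturation list 16 of 20 promoters were acetylated (80%), with a median pileup of 76.7 among them and 2 in a super domain. Pan-neuronal genes ranged widely, with Tubb3, a neuronal tubulin, at 207.06 and Rbfox3, which encodes NeuN, at 144.94, but the synaptic vesicle genes Snap25 at 50.82 and Syt1 at 34.82. The 4 without a peak were Gabra6, Grin2c, Slc17a7 and Grm4, receptor and transporter genes of the mature granule cell. Such genes did not lack the mark as a group, since Cbln1, Cbln3, Grin2b and Kcnc1 were among the 16 acetylated. Slc17a6, the vesicular glutamate transporter of young neurons, was acetylated at 67.77, and the granule cell cadherin Fat2 only at 21.65.

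General genes gave a scale for these values. Housekeeping genes were acetylated in 19 of 20 cases with a median pileup of 154 among them, led by Actb (320) and Ywhaz (294.59), and Gusb had no promoter peak. Chromatin regulators were acetylated in 20 of 20, with a median of 156, led by Ep300 (310.59) and Arid1b (235.3). The median of the lineage factors, 162, was close to both. Super domains held the starts of 8 of 20 housekeeping genes (40%) and 5 of 20 chromatin regulators (25%). Both shares were also above the 3.27% of all coding genes, and the 27.8% of the Sonic hedgehog list lay between them. Around the genes, the lineage list had a median of 5 nearest distal peaks and both general lists 0, and a median of 10.5 peaks within 50 kb against 4.5. The maturation list, with 5.5 and 6.5, was not far from the lineage list in the first of these.

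Acetylated genes of other cerebellar cells had low pileups with 1 exception, Lhx1. Of the Purkinje list 5 of 11 were acetylated (45.5%, near the 46.9% of all coding genes), led by Lhx1 (105.41, in the super domain of rank 233) and Bcl11a (48), also Foxp2 (44.24), Rora (35.76) and Lhx5 (21.65). Calb1, Pcp2, Pcp4, Car8, Skor2 and Itpr1 had no promoter peak. Of the interneuron list 3 of 9 had weak peaks, Gad1 and Slc32a1 (27.29 each) and Pax2 (25.41), and Ptf1a had none. The glial list had 4 of 9 (44.4%), with Sox9 (62.12), Gfap (41.41), Slc1a3 (37.65) and Fabp7 (36.71), but none at Aqp4 or Aldh1l1. Oligodendrocyte genes had 2 of 9, Mbp (57.41) and Pdgfra (37.65), with none at Olig1, Olig2 or Sox10.

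Microglia had 1 of 9 (Csf1r, 20.71) and endothelium 1 of 9 (Pecam1, 20.71). Forebrain regulators such as Emx2 had 0 of 10 and genes of other organs 0 of 15. In a bulk preparation, fewer cells of a type and less signal per cell cannot be told apart, and the part of admixed cells in these weak peaks was not tested.

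**Figure D4:**
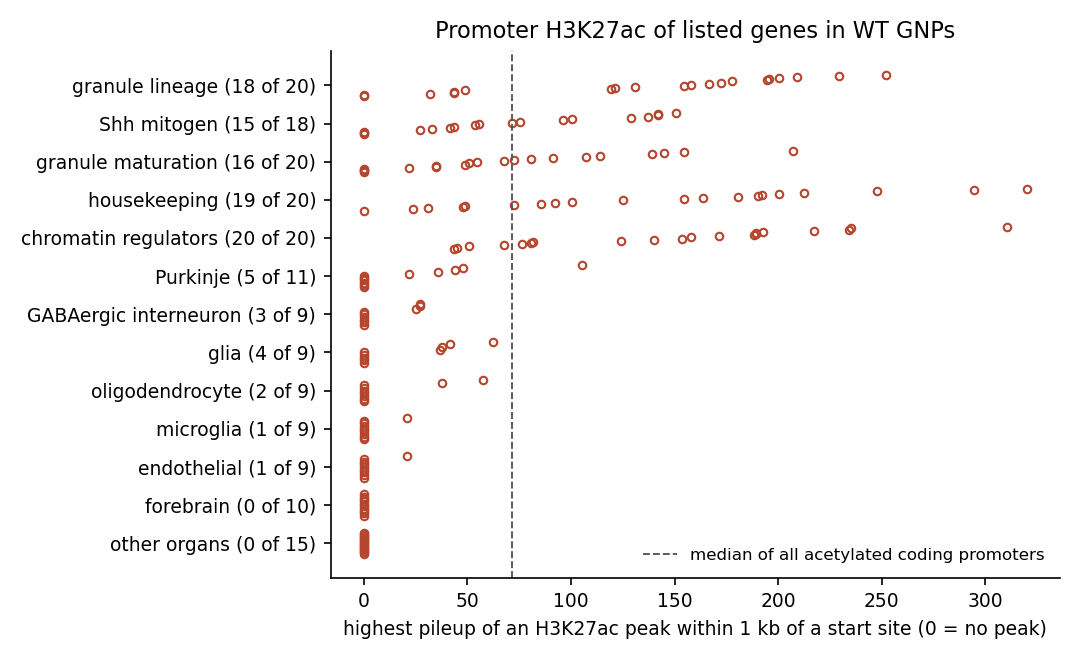
Highest summit pileup of an H3K27ac peak that overlaps 1 kb either side of a start site (x axis, fragments, 0 where no peak was called). Rows are the genes of 13 lists, with the number acetylated of those listed. The dashed line is the median of all acetylated coding promoters, 71.5. Lineage, maturation, housekeeping and chromatin genes reach above 200, and genes of other cells stay under 110.

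The X chromosome stood apart from the autosomes. It had 3.89 peaks per Mb against 12.5 on the autosomes together, and distal peaks were scarcer still, at 1.56 against 7.68 per Mb. Promoter peaks were less affected, with 0.422 against 0.568 per coding gene, so that 60.1% of X peaks were at start sites. Median pileup at promoters was 40 on X and 56.5 on autosomes. Every single autosome had between 9.42 and 17.4 peaks per Mb, the highest being chromosome 11, and promoter medians between 53.7 and 62.1. Pups of both sexes had been pooled. Chromosome 18 had the most distal peaks per Mb, 10.2 against 7.68 over all autosomes. Per coding gene it had 1.80 against 0.909, but it also has the fewest coding genes (513). Its promoter median was that of the autosomes, 56.5.

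The regions acetylated in GNPs were then compared with Top2b, a topoisomerase that acts at active genes of postmitotic neurons, in CGNs obtained from such cells. A Top2b peak of WT CGNs overlapped 2946 H3K27ac peaks (9.39%, 95% interval 9.07 to 9.71), which was 13.7% of promoter peaks and 6.61% of distal peaks. In reverse, 17.4% of 17019 Top2b peaks of WT CGNs were at an acetylated region. In Chd7 KO CGNs the share was higher, at 5731 H3K27ac peaks (18.3%, 17.8 to 18.7), with 30.2% of promoter peaks and 10.6% of distal peaks, or 26.7% of 21497 Top2b peaks. Each genotype had 1 library, so that the difference carries no replicate error, and the KO library also had more peaks in all. Top2b overlap rose with pileup in both, from 1.53% in the lowest decile of H3K27ac peaks to 23.6% in the highest in WT, and from 2.36% to 45.8% in Chd7 KO. Chd7 peaks of WT GNPs went from 0.414% to 18.5%. The stronger peaks were also wider, with medians of 352 and 1765 bp in these deciles, and the part of width was not tested. Within the highest decile, distal peaks carried WT Top2b in 25.9% and promoter peaks in 23.1% of cases, and Top2b of Chd7 KO CGNs in 39.2% and 47.2%.

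**Figure D5:**
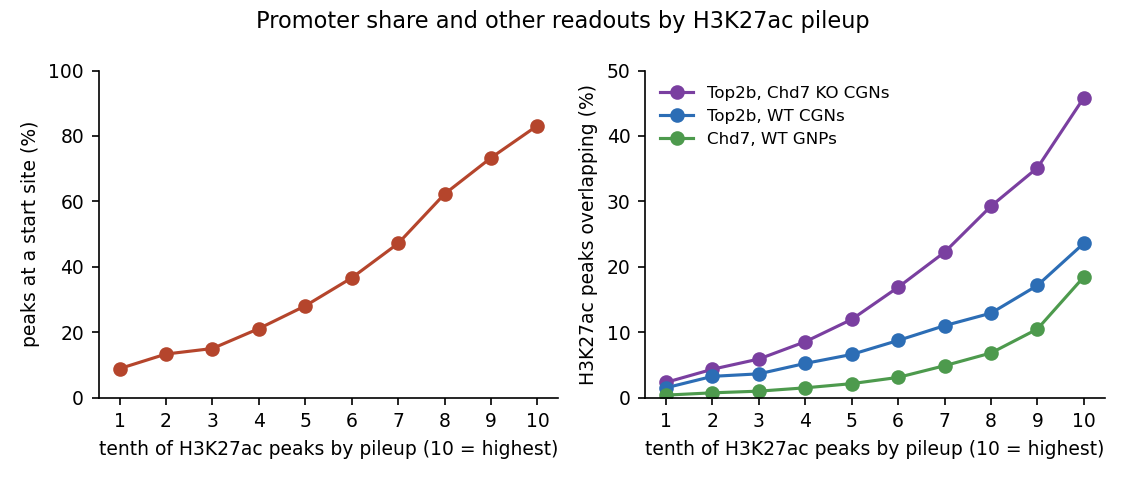
Share of H3K27ac peaks at a start site (left, %) and share overlapping a Top2b peak of WT or Chd7 KO CGNs or a Chd7 peak of WT GNPs (right, %) in deciles of the 31389 H3K27ac peaks by pileup (x axis, 10 highest). Each curve rises, the promoter share from 8.92% to 83.2% and Top2b in Chd7 KO CGNs from 2.36% to 45.8%.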

How the data were processed

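Libraries had been sequenced as paired ends by the authors, trimmed with Trim Galore and mapped to mm10 with Bowtie 1.0.0. Only uniquely mapped reads were kept, so that reads with several mapping places add nothing to the peaks. H3K27ac and Chd7 peaks were called per library with MACS2 and Top2b peaks with HOMER. Input DNA was sequenced too, but whether it was the control of these calls, and the version of MACS2 used for ChIP-seq, are not given in the sources used here. The deposited H3K27ac table holds a pileup (coverage signal at the summit, in steps of 0.941), −log10 p, fold enrichment and −log10 q. The last 3 had lost their decimal point and were divided by 100000, and −log10 p recomputed from the pileup for 31337 peaks differed by at most 0.00261. Read totals are not in these files, so library depth is unknown. Left out were 6 peaks of Y and 5 of unplaced sequences.

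Peaks were assigned to GENCODE M21 with Python 3.11.15, pandas 2.3.3 and scipy 1.17.1, and sequence was read with pysam 0.24.0. Functions were tested on simulated regions. Named genes are those at the 15 highest −log10 q, the 10 widest peaks, the 20 top regions, the 10 genes with most peaks, all lineage and Sonic hedgehog members, members departing from their list and 2 leaders per list. Others were chosen after their values were seen. Members and lists were chosen with earlier results of these data known. Alternatives covered −log10 q, start windows, stitching, ranking and window size. Values of some list members are not reported here.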

Additional observations from a re-analysis of the deposited data

How the results depend on the processing

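No paired analysis was possible because each condition and antibody had 1 library, and there was no test to lose. The promoter share of 38.9% was 47.6% at a −log10 q of at least 5, 60.1% at 10, 34.8% with a 500 bp window, 43.3% with 2 kb, 35.7% with coding starts only and 40.9% by any overlap. The 612 super domains became 361 without promoter peaks and 477 to 904 otherwise. Acetylated coding genes (46.9%) were 47.9% with 2 kb, and 45.3% and 41.1% at a −log10 q of 5 and 10. At a −log10 q of 10 the interneuron list went from 3 to 0 and the oligodendrocyte list from 2 to 1. The microglia and endothelial lists, with 1 each, had 0 at 5 and at 10, and the endothelial list 0 with 500 bp. The other organs had 1 with 2 kb (Sftpc). With the other peak covered over at least 50% of its length, overlaps were 4.02% for Chd7, 8.0% for Top2b in WT and 15.3% in Chd7 KO, and Chd7 peaks of −log10 q 5 or more gave 2.0%. The cause was not tested where a setting did more than admit fewer or wider regions. With the peak at the start of the promoter sequence itself, 3.45% instead of 8.09% of CpG-poor promoters were acetylated. The shares, counts and ratios stayed within their interval or within 1.5 times in 89 other comparisons. Ranks of regions were not among these and moved more: without promoter peaks Zic2 with Zic5 went from 7 to 82, Nfia from 12 to 184, Pax6 from 24 to 140 and Mir9-1 from 19 to 7120, and without stitching Ppp2r2c went from 10 to 99.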
